A study of Mus musculus with 7 samples.

Results

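The let-7 target and oncofetal genes examined here are 9 mouse genes: Igf2bp1, Lin28b, Arid3a, Mycn, Hmga2, Plagl1, E2f6, Lrig3 and Cdc34. They were chosen by name, with earlier results of these data known. Every probe set of the deposited value table was taken whose platform annotation gives exactly 1 gene symbol, that symbol being one of the 9. All 9 were measured, with 93 probe sets, of 5017 genes and 65535 probe sets in the table. The genes in the table lie almost all on chromosomes 1, 10, 11, 12 and 13 (4918 of the 5004 genes placed), and genes elsewhere were not analysed here.

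The study measured gene expression by Affymetrix array in retinal pigmented epithelium (RPE), a sheet of pigmented support cells that lies against the photoreceptors. The tissue was dissected from mice at postnatal day 5. Dicer1-deficient RPE (genotype Dicer1loxP/loxP;Dct-Cre) gave 3 arrays, and control RPE gave 4 arrays. Both groups came from a cross of Dicer1 flox/+ mice carrying Dct-Cre with Dicer1 flox/flox mice, so every pup carries at least 1 floxed allele. No source used here gives the genotype of the controls, whether they carry Cre, or whether an array held RNA of 1 animal or of a pool. The p-values below therefore measure the spread between arrays, which may be partly technical. The Dct promoter that drives Cre is active in pigment cells, including melanocytes as well as RPE, and the dissected tissue may hold cells without Cre.

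Dicer is the RNase that cuts hairpin precursors into mature microRNAs, among them the let-7 family. Mature let-7 binds matching sites in messenger RNAs, mostly through its seed, and lowers their stability and translation. It is scarce in embryonic cells, where LIN28 proteins block the processing of its precursors, and abundant in differentiated ones. Many of its best known targets are oncofetal genes, active in the embryo and in tumours but little in most adult tissues. No microRNA was measured on these arrays.

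The sequences shown here are those of let-7 itself. The members were chosen by name and not by a match to its seed. Their transcripts were not searched for let-7 sites, so whether each member carries a site was not tested. The list of RefSeq (GRCm38.p6) loci used here was filtered by chromosome and may not be complete. It held 10 mature let-7 and miR-98 names with a common seed, from 12 loci, of which 3 lie on chromosome 13 and 1 on chromosome 10. In the mature sequences below, written 5′ to 3′, capitals mark the seed, bases 2 to 8.
let-7a-5p: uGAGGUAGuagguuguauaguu
let-7d-5p: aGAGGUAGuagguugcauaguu
let-7e-5p: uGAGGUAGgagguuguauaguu
let-7g-5p: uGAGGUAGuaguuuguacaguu
let-7i-5p: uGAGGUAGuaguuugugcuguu
miR-98-5p: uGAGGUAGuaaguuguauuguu
let-7j: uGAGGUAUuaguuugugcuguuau
The first base and the bases after the seed vary between names, while let-7j differs within the seed itself. The DNA letters complementary to the common seed are CTACCTC. The stem-loop from which let-7a is cut, first by Drosha at its base and then by Dicer near the loop, is shown by the let-7a-1 hairpin at chr13:48538179-48538272 (minus strand, 94 bases), with both mature arms in capitals and the loop between them.
let-7a-1 hairpin: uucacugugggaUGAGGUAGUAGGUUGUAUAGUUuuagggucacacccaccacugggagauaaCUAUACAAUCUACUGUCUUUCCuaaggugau

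Values are log2 signals per probe set, a short stretch of a gene's transcript. They ranged from 2.71 to 13.5 with a median of 6.22 and a lower quartile of 4.63. Signals of different probe sets are not set against each other, since each has its own brightness. Control array 4 stood apart before any comparison: its median was 6.05, against 6.22 to 6.26 in the other 6 arrays, and its correlation with any other array over all probe sets was 0.942 to 0.951. The 3 Dicer1-deficient arrays correlated with each other at 0.980 to 0.984. Results are therefore given with and without control 4 where it changes them. The targeted gene, Dicer1, read 10.53, 10.71 and 10.47 in the Dicer1-deficient arrays and 10.27, 10.65, 10.69 and 10.88 in the controls at its brightest probe set (difference −0.05, adjusted p = 0.961). Without control 4 that difference was 0.03 (adjusted p = 0.913). The mean of the 28 Dicer1 probe sets showed no loss either (difference −0.04, limma adjusted p = 0.921). The sources used here give neither the deleted part nor the place of the probe sets in the transcript. These values therefore do not check the genotypes. Of 17 RPE markers listed, 6 were measured, with mean signals over all 6 of 10.56 to 10.64 in the Dicer1-deficient arrays and 11.00 to 11.11 in the controls, so the tissue's markers were present in both groups. Rpe65 and the other unmeasured RPE markers were not analysed here.

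Each gene was represented by its brightest probe set, the one with the highest mean over the 7 arrays. At that probe set Arid3a, Mycn and Igf2bp1 rose in Dicer1-deficient RPE, by 1.33, 1.30 and 1.09 on the log2 scale. None of the 9 genes was called lower at that probe set. The same 3 were called without control 4, in a fit that called 3.17% of all genes higher. The other 6 differences lay between −0.30 and 0.06 and did not pass the test. The test was limma's moderated test over all 5017 genes, two-sided, with Benjamini-Hochberg adjustment and a threshold of 0.05. Against 3 of 9 members, it called 2.33% of all genes, with 1.42% higher and 0.917% lower. As the members were chosen with earlier results known, these shares describe the members and do not test them as a group. The median difference was 0.05 over the members and −0.01 over all genes. In bulk tissue such as this, a different number of cells of a type and a different amount of RNA per cell cannot be told apart.

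**Figure D1:**
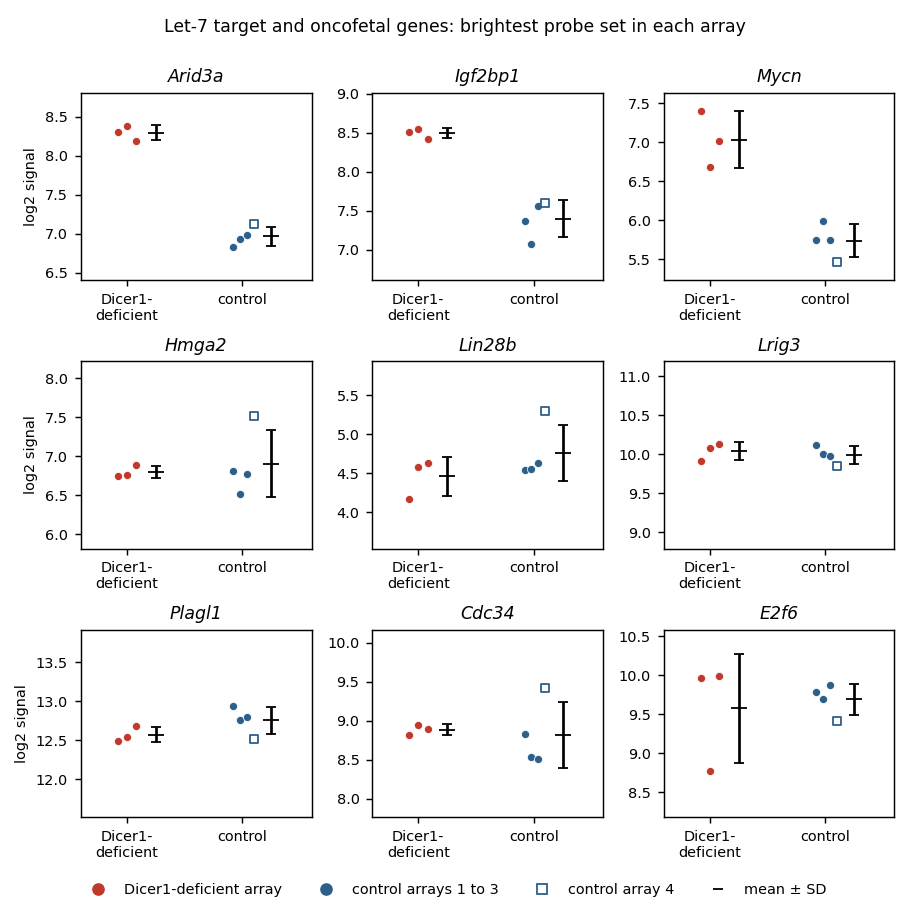
Log2 signal of each gene's brightest probe set in every array, with a panel per gene, each with its own scale. Points are arrays (open square, control 4) and bars give the mean ± SD of 3 Dicer1-deficient and 4 control arrays. The groups separate for Arid3a, Igf2bp1 and Mycn only, and control 4 lies highest of all arrays for Hmga2, Lin28b and Cdc34.

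Igf2bp1 encodes an RNA-binding protein of the embryo that holds bound messenger RNAs in the cytoplasm and protects them from decay. Its brightest probe set gave log2 signals of 8.51, 8.55 and 8.42 in the 3 Dicer1-deficient arrays, against 7.36, 7.08, 7.56 and 7.60 in the 4 control arrays. Every Dicer1-deficient array lay above every control array, and the Dicer1-deficient arrays lay closer together than the controls. The means were 8.49 ± 0.067 (SD, n = 3) in Dicer1-deficient RPE and 7.40 ± 0.24 (SD, n = 4) in control RPE, a 2.14-fold difference (log2 1.09, SE 0.14, limma adjusted p = 0.00902). Without control 4 the difference was 1.16 (adjusted p = 0.00518), and the fit without control 4 called 5.18% of all genes. The call at this probe set was lost without Dicer1-deficient array 1 (adjusted p = 0.0561) or array 2 (0.0542).

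The brightest probe set of Igf2bp1 showed one of the smaller differences of the gene. All 16 Igf2bp1 probe sets read higher in Dicer1-deficient RPE, by 0.87 to 2.95 with a median of 2.02, and 13 of them passed the test over all 65535 probe sets, which called 0.856% of probe sets. At each of the 16 the groups did not overlap. The background for this is 7.25% of single probe sets, and 2 of the 2114 genes with 10 or more probe sets (0.0946%): Galc, a lysosomal galactosylceramidase with 18 probe sets, and Igf2bp1. The probe sets of a gene share the same arrays and are not replicates of each other. At the eighth probe set in order of ID, where the difference was the widest, signals were 8.74, 8.76 and 8.45 in Dicer1-deficient arrays, against 5.57, 6.57, 5.56 and 5.10 in controls. At the sixth, where it was the narrowest, they were 7.73, 7.35 and 7.05 in Dicer1-deficient arrays, against 6.49, 6.44, 6.43 and 6.67 in controls. The controls varied more at the eighth probe set and the Dicer1-deficient arrays more at the sixth, yet neither pair of groups met.

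Averaged over its 16 probe sets, Igf2bp1 reached 7.74 ± 0.14 in Dicer1-deficient RPE (SD, n = 3) and 5.84 ± 0.17 in control RPE (SD, n = 4). This is a difference of 1.90 (SE 0.11, 3.74-fold, limma adjusted p = 2.15e-05), more than 1.5 times that at the brightest probe set on the log2 scale. It stayed past the threshold without any 1 of the 7 arrays (1.82 to 1.98, adjusted p up to 0.000483). Taking the mean of probe sets called 5.86% of all genes.

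Lin28b encodes the RNA-binding protein that blocks let-7 processing and is itself described as a let-7 target. Its signals were 4.17, 4.58 and 4.64 in the Dicer1-deficient arrays, against 4.55, 4.56, 4.64 and 5.30 in the control arrays. All but control 4 lay near the lower quartile of the table or below it, and the groups overlapped. The means were 4.46 ± 0.25 (SD, n = 3) in Dicer1-deficient RPE and 4.76 ± 0.36 (SD, n = 4) in control RPE (difference −0.30, SE 0.21, limma adjusted p = 0.652). Without control 4 the difference was −0.12. Its 8 probe sets split into 4 higher and 4 lower, from −0.30 to 0.24. At signals this low the arrays have little room to show a further decrease.

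Arid3a encodes a DNA-binding transcription factor with an AT-rich interaction domain, first described in B cells. Its brightest probe set read 8.31, 8.39 and 8.20 in Dicer1-deficient arrays, against 6.83, 6.94, 6.98 and 7.12 in control arrays. The gap between the lowest Dicer1-deficient and the highest control array was wider than the range of either group. The means were 8.30 ± 0.097 (SD, n = 3) in Dicer1-deficient RPE and 6.97 ± 0.12 (SD, n = 4) in control RPE, a 2.51-fold difference (log2 1.33, SE 0.11, limma adjusted p = 0.00101). By p-value this ranked 10 of all 5017 genes, ahead of Igf2bp1 at 36 and Mycn at 49. The call held without any 1 of the 7 arrays (adjusted p 0.000666 to 0.0116), and without control 4 the difference was 1.38.

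Along its 11 probe sets the difference in Arid3a was uneven. The first 2 in order of ID showed −0.01 and −0.11. The next 8 showed 0.83 to 1.97, and the last showed 0.33. The sixth held the widest, with 7.90, 7.76 and 7.76 in Dicer1-deficient arrays, against 5.96, 6.29, 5.87 and 5.24 in controls. The first probe set was dim in both groups, with means of 4.26 in Dicer1-deficient RPE and 4.27 in control RPE. The second was not dim but scattered, with 6.80, 5.05 and 5.93 in Dicer1-deficient arrays, against 5.76, 5.71, 5.73 and 6.96 in controls. The groups did not overlap at the other 9 probe sets, all higher in Dicer1-deficient RPE, where the background is 7.25% of probe sets. Of these 9, 5 passed the test, which called 0.533% of all probe sets higher. Without control 4, 7 passed, where 1.00% of all probe sets were called higher. Averaged over all 11 the difference was 0.89 (SE 0.090, adjusted p = 0.000462).

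Mycn encodes a MYC family transcription factor that drives proliferation in embryonic neural tissue, retina included. Its brightest probe set read 7.40, 6.69 and 7.01 in Dicer1-deficient arrays, against 5.74, 5.99, 5.75 and 5.46 in control arrays. The groups did not overlap, but the Dicer1-deficient arrays were spread more widely than for Arid3a or Igf2bp1. The means were 7.03 ± 0.36 (SD, n = 3) in Dicer1-deficient RPE and 5.74 ± 0.21 (SD, n = 4) in control RPE, a 2.46-fold difference (log2 1.30, SE 0.19, limma adjusted p = 0.0155). Without control 4 the difference was 1.21 (adjusted p = 0.0168). The call was lost without Dicer1-deficient array 1 (adjusted p = 0.0561) or array 3 (0.0749), and without control 1 (0.0516).

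Mycn had 4 probe sets, and only the brightest of them passed the test over all probe sets (adjusted p = 0.0344). At the second the signals were 5.74, 5.35 and 5.51 in Dicer1-deficient arrays, against 5.03, 5.02, 4.97 and 4.77 in controls (difference 0.59, adjusted p = 0.142), and these did not overlap either. The last 2 were dim, with group means between 3.57 and 3.87 and differences of −0.11 and 0.30. The mean of the 4 differed by 0.52 (SE 0.093, adjusted p = 0.0122), and their median by 0.29 (adjusted p = 0.265). The call with the mean was lost without Dicer1-deficient array 1 (adjusted p = 0.0725) or array 3 (0.0590). Which summary is used thus moves the size of the Mycn difference by more than 1.5 times and, with the median, ends the call.

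**Figure D2:**
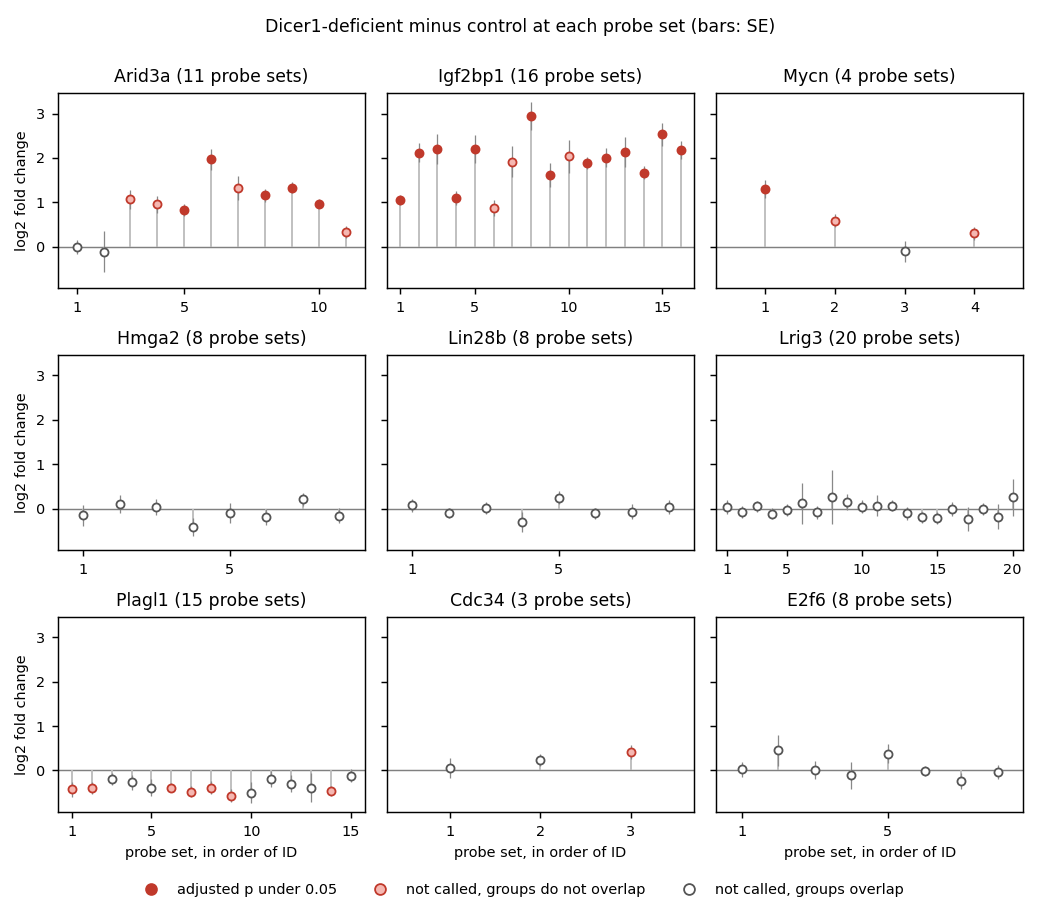
Difference in log2 signal, Dicer1-deficient minus control, at every probe set of each gene in order of probe set ID, with bars of 1 SE. Filled points passed the test over all probe sets (19 of 93, all in Arid3a, Igf2bp1 and Mycn), pale points did not pass but had groups that do not overlap, and open points had groups that overlap. Igf2bp1 lies above 0 throughout and Plagl1 below 0 throughout.

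Hmga2 encodes an AT-hook chromatin protein of the embryo and is among the most used reporters of let-7 activity. Its signals were 6.74, 6.75 and 6.89 in Dicer1-deficient arrays, against 6.80, 6.52, 6.78 and 7.51 in controls. The groups overlapped, and control 4 alone lay well above the rest. The means were 6.79 ± 0.079 (SD, n = 3) in Dicer1-deficient RPE and 6.90 ± 0.43 (SD, n = 4) in control RPE (difference −0.11, SE 0.22, limma adjusted p = 0.932). Without control 4 the sign turned, to 0.095 (adjusted p = 0.639). Its 8 probe sets held 3 higher and 5 lower, from −0.42 to 0.21.

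Plagl1, also called Zac1, encodes an imprinted zinc finger transcription factor that can arrest the cell cycle. Its brightest probe set read 12.49, 12.54 and 12.68 in Dicer1-deficient arrays, against 12.93, 12.76, 12.79 and 12.52 in controls. Only control 4 fell within the range of the Dicer1-deficient arrays. The means were 12.57 ± 0.097 (SD, n = 3) in Dicer1-deficient RPE and 12.75 ± 0.17 (SD, n = 4) in control RPE (difference −0.19, SE 0.12, limma adjusted p = 0.596). Without control 4 it was −0.26 (adjusted p = 0.144).

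All 15 Plagl1 probe sets read lower in Dicer1-deficient RPE, by −0.57 to −0.11 with a median of −0.39, and none passed the test alone (lowest adjusted p = 0.155). Such a run is found in 3.74% of the genes with 10 or more probe sets, and its converse in 4.26%. The groups did not overlap at 7 of the 15, where the background is 6.10% of probe sets, and at 11 of the 15 without control 4, where it is 12.1% (11.9% on the higher side). The evenest was the sixth probe set, with 10.87, 10.96 and 10.97 in Dicer1-deficient arrays, against 11.33, 11.30, 11.32 and 11.34 in controls. The mean of the 15 was 10.52 ± 0.14 (SD, n = 3) in Dicer1-deficient RPE and 10.88 ± 0.091 (SD, n = 4) in control RPE (difference −0.36, SE 0.094, adjusted p = 0.0578). Without control 4 that mean passed the test at almost the same size (−0.37, adjusted p = 0.0254), in a fit that called 17.0% of all genes and 10.3% lower.

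E2f6 encodes an E2F protein that lacks the activating domain and represses its targets. It read 9.97, 8.77 and 9.99 in Dicer1-deficient arrays, against 9.79, 9.69, 9.87 and 9.41 in controls. Dicer1-deficient array 2 lay below all other arrays, and arrays 1 and 3 above them. The means were 9.58 ± 0.70 (SD, n = 3) in Dicer1-deficient RPE and 9.69 ± 0.20 (SD, n = 4) in control RPE (difference −0.11, SE 0.30, limma adjusted p = 0.953). Without Dicer1-deficient array 2 the difference was 0.29. The 8 probe sets held 4 higher and 4 lower, from −0.24 to 0.46.

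Lrig3 encodes a transmembrane protein with leucine-rich repeats and immunoglobulin-like domains. Its signals were 9.92, 10.08 and 10.14 in Dicer1-deficient arrays, against 10.12, 10.01, 9.98 and 9.85 in controls, and the groups overlapped over nearly their whole range. The means were 10.04 ± 0.11 (SD, n = 3) in Dicer1-deficient RPE and 9.99 ± 0.11 (SD, n = 4) in control RPE (difference 0.05, SE 0.11, limma adjusted p = 0.930). With 20 probe sets it was the most densely measured of the 9 genes, and these ran from −0.23 to 0.25, with 9 higher and 11 lower.

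Cdc34 encodes a ubiquitin-conjugating enzyme that works with SCF ligases on cell cycle regulators. Its brightest probe set read 8.81, 8.95 and 8.89 in Dicer1-deficient arrays, against 8.82, 8.54, 8.50 and 9.42 in controls. Control 4 lay above all other arrays, and control 1 within the Dicer1-deficient range. The means were 8.88 ± 0.069 (SD, n = 3) in Dicer1-deficient RPE and 8.82 ± 0.42 (SD, n = 4) in control RPE (difference 0.06, SE 0.22, limma adjusted p = 0.965). Without control 4 the difference was 0.26 (adjusted p = 0.207). All 3 probe sets were on the higher side, at 0.06, 0.24 and 0.41. Their mean differed by 0.24 (adjusted p = 0.205), and by 0.29 without control 4 (adjusted p = 0.0222). That fit, to the mean of probe sets without control 4, called 6.74% of genes higher.

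**Figure D3:**
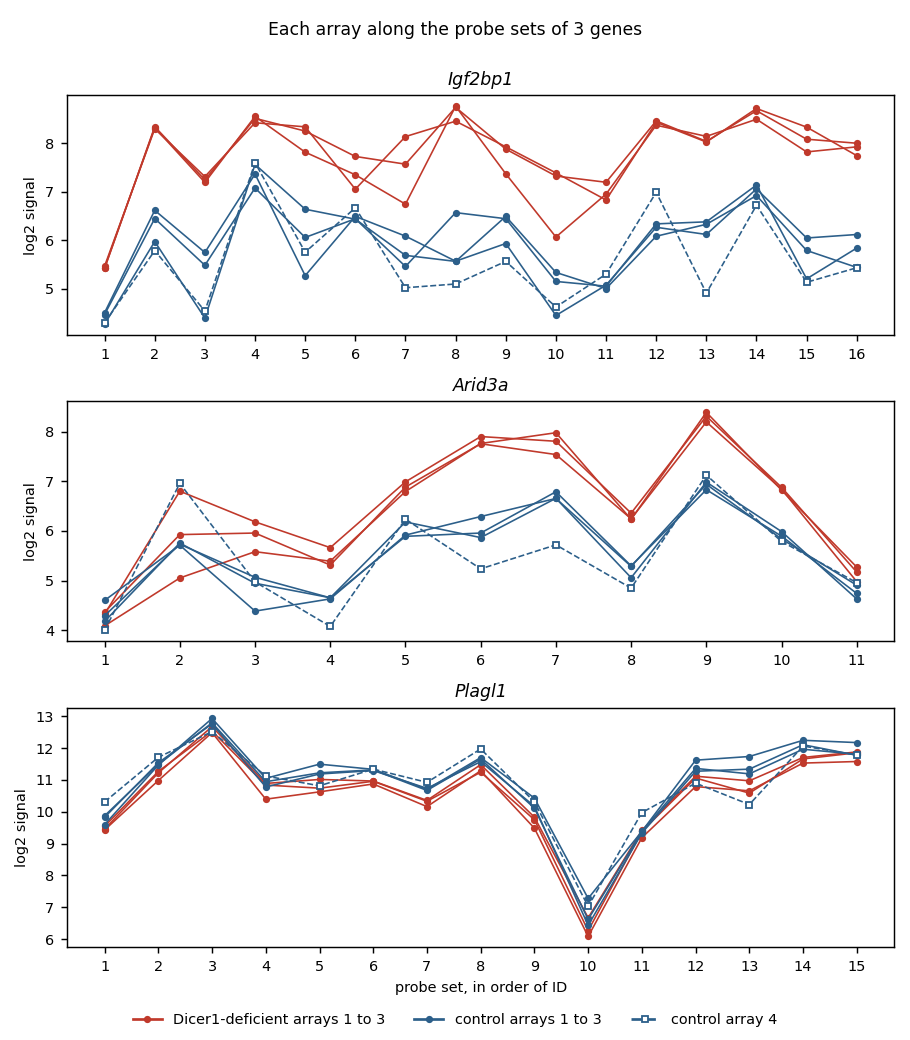
Log2 signal of every array along the probe sets of Igf2bp1, Arid3a and Plagl1 in order of ID, with a line per array (dashed with squares, control 4). The Dicer1-deficient lines lie above all control lines at 16 of 16 probe sets of Igf2bp1 and 9 of 11 of Arid3a, and below them at 7 of 15 of Plagl1.

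The evenness of each gene's difference along its probe sets was tested with limma's diffSplice F test, which asks whether the probe sets of a gene share 1 log2 difference. Over the 4470 genes with more than 1 probe set, it called 1.36%. The probe sets of a gene share the same arrays, so the p-values of this test are a guide only. Of the 9 members, Arid3a (adjusted p = 0.000179), Igf2bp1 (0.0101) and Mycn (0.0184) passed. The other 6 members had adjusted p-values of 1. With Simes-adjusted tests of single probe sets in place of the F test, Arid3a (0.0135) and Mycn (0.0210) passed and Igf2bp1 did not (0.110). Arid3a stayed past the threshold without any 1 of the 7 arrays (adjusted p up to 0.0285). Igf2bp1 did not without Dicer1-deficient array 1 (0.351), 2 (0.0945) or 3 (0.311), nor did Mycn without Dicer1-deficient array 1 (0.433) or 3 (0.186), or control 1 (0.139). Once probe sets with a mean under the lower quartile were left out, Mycn no longer passed (0.522). No source used here places the probe sets in the transcripts, so the uneven stretches cannot be tied to exons.

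Over all 93 probe sets of the 9 genes, 19 (20.4%) passed the test, all of them higher in Dicer1-deficient RPE and all in Arid3a, Igf2bp1 or Mycn. The background is 0.533% of probe sets higher and 0.323% lower. This too is a description and no test of the group, given how the members were chosen. The groups did not overlap at 29 of the 93 probe sets on the higher side, 16 of them in Igf2bp1, where the background is 7.25%. On the lower side they did not overlap at 7 of the 93, all in Plagl1, where it is 6.10%. At the level of genes, the groups did not overlap for 3 of the 9 members, against 16.3% of all genes (9.27% higher, 7.02% lower). Of the 93 probe sets, 14 had a mean below the lower quartile of the table, where small differences are hard to see.

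**Figure D4:**
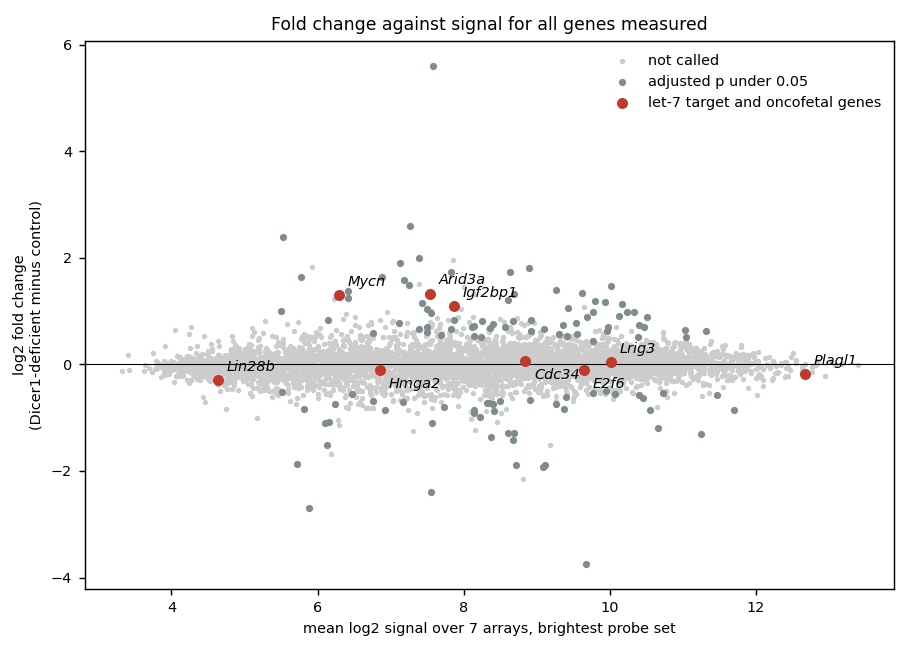
Difference in log2 signal, Dicer1-deficient minus control, against the mean log2 signal over the 7 arrays, for the brightest probe set of each of the 5017 genes. Dark points are the 117 genes past an adjusted p of 0.05, and the 9 members are named. Arid3a, Mycn and Igf2bp1 lie between 1.09 and 1.33, and the other 6 members lie within the grey band around 0.

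Further genes of the let-7 pathway were taken as lists, of which only the members on the measured chromosomes could be read. Of 53 other described let-7 targets 19 were measured, with a median difference of 0.01. Of these 1 passed the test, which called 2.33% of all genes (1.42% higher). That gene was Dna2, a helicase and nuclease of DNA replication and repair. It read 8.14, 8.37 and 8.12 in Dicer1-deficient arrays, against 7.76, 7.42, 7.64 and 7.35 in controls (difference 0.67, SE 0.13, limma adjusted p = 0.0498). The groups did not overlap, as in 9.27% of all genes on the higher side. It lost the call without any 1 of the arrays other than control 4, and its mean over 22 probe sets differed by 0.33 (adjusted p = 0.285). The call was also lost with median centring (0.0575), with trend (0.0621) or robust (0.0521) fits, and with the median of probe sets (0.249). Next in order of p-value came Fnip1, a partner of folliculin, at 0.22 (adjusted p = 0.381) and Limd2, a LIM domain protein, at −0.22 (0.439).

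Of 30 genes that make or use microRNAs, 6 were measured and none passed (0 also at an unadjusted p under 0.05), with a median of −0.01. Those with the smallest p-values were Dis3l2, the nuclease that degrades let-7 precursors tagged under LIN28, at 0.23 (adjusted p = 0.513), Tut7, one of the enzymes that adds the tag, at 0.10 (0.823), and Tnrc6c, a silencing factor that binds Argonaute, at −0.09 (0.838). Of 40 paralogs and partners of the members, 12 were measured and none passed (0 at an unadjusted p under 0.05), with a median of 0.12. They included Mlx at 0.27 (0.348) and Mnt at 0.25 (0.435), both of the network of MYC-related factors, and Arid4b, another AT-rich interaction domain protein, at 0.27 (0.529).

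The MYC family target genes, which MYCN can drive in other cells, were measured for 13 of 19. None passed by limma's adjusted p, 5 were on the higher and 8 on the lower side, and the median was −0.03. Only Nme2, a nucleotide kinase, at −0.64 (adjusted p = 0.210), and Id2, an inhibitor of basic helix-loop-helix factors, at −0.27 (0.326), had an unadjusted p under 0.05. The related kinase Nme1 stood at −0.22 (0.351). Of 16 other oncofetal and embryonic growth genes 4 were measured and none passed (1 at an unadjusted p under 0.05, Dlk1), with a median of −0.11. Among them were the imprinted genes Dlk1 at −0.27 (0.210), Meg3 at −0.16 (0.831) and Grb10 at −0.06 (0.908). Across these 5 lists limma called 1 gene, Dna2, and a difference between the members and these lists was not tested.

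**Figure D5:**
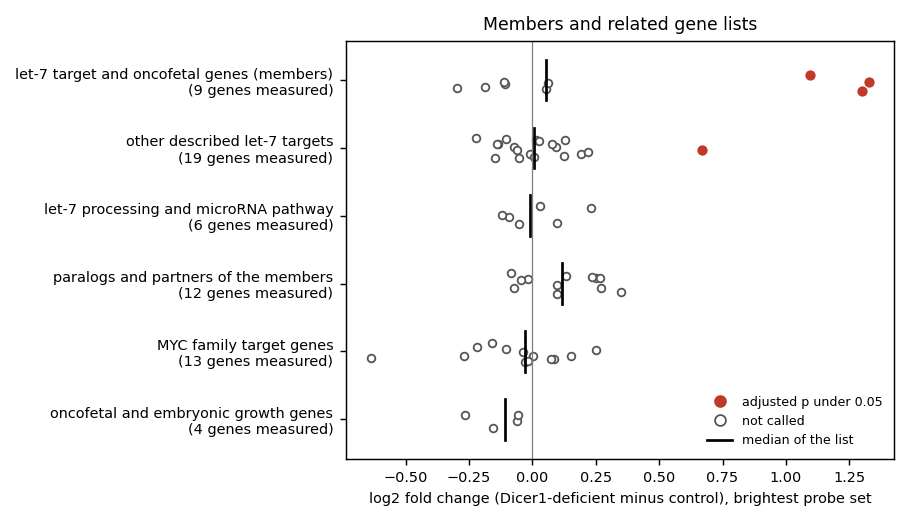
Difference in log2 signal, Dicer1-deficient minus control, at the brightest probe set of each measured gene, for the 9 members and 5 related lists, with a row per list. Points are genes (filled, adjusted p under 0.05), and the vertical stroke is the list's median, which lies between −0.11 and 0.12 in every row.

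Markers of other cell types that the dissected tissue could hold were read beside these genes, as the mean signal of each list. Retinal progenitor markers (3 of 10 measured) lay at 6.31 to 7.30 in Dicer1-deficient arrays and 5.82 to 6.50 in control arrays, and these means overlapped. One of them, the orphan nuclear receptor Nr2e1, rose by 0.69 at its brightest probe set (limma adjusted p = 0.0155). The mean of its 10 probe sets differed by 0.45 and did not pass (0.0758). Neither Neurod4, at 1.83 with widely spread arrays (0.325), nor Atoh7, at −0.03 (0.964), passed. Photoreceptor markers (7 of 16 measured, none past the test) lay at 6.70 to 7.20 in Dicer1-deficient arrays and 5.99 to 6.80 in controls. Without control 4 the controls reached 6.64 at most, so that the photoreceptor means did not overlap. Unc119, a trafficking protein of photoreceptors, then passed at 0.61 (limma adjusted p = 0.0173), in a fit that called 3.17% of genes higher. With the mean of its probe sets and all arrays its adjusted p was 0.00898, where 152 of 5017 genes were called higher. Lens markers (7 of 17 measured, none past the test) lay at 6.88 to 8.54 in Dicer1-deficient arrays and 5.91 to 7.61 in controls, and their groups overlapped. Of 4 inner retinal neuron markers measured of 11, Tfap2a, an AP-2 transcription factor, fell by 0.99 (adjusted p = 0.0470). Its paralog Tfap2b stood at 0.86 (0.0938) and was called higher with the mean of probe sets (0.0437), and the list means overlapped, at 6.76 to 6.97 in Dicer1-deficient arrays and 6.72 to 6.93 in controls. Markers of dividing cells (13 of 18 measured, none past the test) lay at 8.73 to 8.81 in Dicer1-deficient arrays, within the range of 8.30 to 8.93 in controls.

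Other lists lay lower in Dicer1-deficient RPE. The RPE markers, whose means are given above and did not overlap, read lower in all 6 measured genes. Kcnj13, a potassium channel of the RPE, fell by 1.19 (limma adjusted p = 0.00510). With the mean of probe sets 4 of the 6 were called lower (Kcnj13, Rdh5, Rdh10 and Sulf1), in a fit that called 142 of 5017 genes lower. Without control 4, 2 were (Kcnj13 and Sulf1), in a fit that called 101 of 5017 genes lower. Melanocyte and Schwann cell markers (3 of 8 measured) lay at 8.33 to 8.47 in Dicer1-deficient arrays and 8.83 to 9.26 in controls, with none past the test at the brightest probe set and Pax3 and Erbb3 called lower with the mean of probe sets. Fibroblast and sclera markers (10 of 12 measured) lay at 11.31 to 11.55 in Dicer1-deficient arrays and 11.68 to 11.79 in controls, with none past the test at the brightest probe set and Fmod and Omd called lower with the mean of probe sets. Pigment markers (5 of 14 measured, none past the test) lay at 9.42 to 9.93 in Dicer1-deficient arrays and 9.89 to 10.31 in controls. Eye muscle, endothelial and macrophage markers held no called gene, and their list means overlapped between the groups. The part of any of these cells in the rise of Arid3a, Igf2bp1 and Mycn was not tested. No marker can read 0 on these arrays, whose lowest value was 2.71.

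Among 4629 genes with a plain symbol, those whose pattern over the 7 arrays was most like that of Arid3a were Mfsd6 (Pearson r = 0.997), Irx4 (0.993) and Acss3 (0.993). Most like Igf2bp1 were Sp4 (0.989), Pitpnm3 (0.986) and Reep3 (0.979), whose own differences of 0.35, 0.28 and 0.19 did not pass the test. Most like Mycn were Raet1d (0.988), Zbtb18 (0.982) and Ccdc125 (0.977). Between members, Arid3a and Igf2bp1 correlated at 0.972, and Mycn at 0.905 with Arid3a and 0.846 with Igf2bp1. Hmga2 and Cdc34 correlated at 0.889, both with control 4 as their highest array. These values are a description over 7 arrays in 2 groups, and the points share the group difference and the outlying control 4.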

How the data were processed

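Total RNA of dissected mouse RPE was labelled with biotin and measured on Affymetrix arrays, 3 Dicer1-deficient and 4 control, per the labels. The deposited values are log2 signals per probe set, and the submitters' processing notes name RMA and Partek 6.6 without their roles. The array's genome build is not given in the sources used here. Of 65535 probe sets, 53644 carry 1 gene symbol, 877 several and 11014 none, and only the first kind named a gene. Symbols were updated through RefSeq (698 updated, 13 unmatched). Arrays have no read depth, and their number limits the precision.

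Each gene was read at its brightest probe set by the mean of the 7 arrays. Groups were compared with limma 3.58.1 in R 4.3.3 (lmFit, eBayes, two-sided, Benjamini-Hochberg over the whole table, threshold 0.05) and along genes with diffSplice. Both were run on simulated data with independent values, which hold no shared array effect and no outlying array like control 4. Alternatives were the mean or median of probe sets, other scalings, filters on dim probe sets, trend, robust and weighted fits, Simes adjustment in diffSplice, and each array left out. Named genes were all members with every probe set, the genes past the threshold and the 3 smallest p-values of each related gene list, and the 3 most correlated genes per rising member. Markers were named where a setting called them, and for retinal progenitors all those measured were named. The members and lists were chosen with earlier results of these data known.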

Additional observations from a re-analysis of the deposited data

Results flagged for a closer look

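Lin28b in control array 4 was far from the other 3 controls, at a log2 signal of 5.30 against 4.55 to 4.64. Its gap to the nearest control was 0.882 of the whole range of the controls, above Dixon's critical value for 4 samples. The brightest probe sets of 9 genes were tested in this way and 1 stood out, where chance gives about 1 group in 20. Without control 4 the Lin28b difference, Dicer1-deficient minus control, was −0.12 in place of −0.30, and neither passed the test. The part of control 4's lower overall signal in this value was not tested.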

How the results depend on the processing

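Under the alternatives, 0 of the 3 calls changed direction. Of 161 values of single members under an alternative, 141 kept direction and side of the threshold, 6 lost the call, 2 gained one and 12 turned sign, all among genes that did not pass. The number of genes called, 117 at the brightest probe set, was 294 (152 higher, 142 lower) with the mean of probe sets, 176 (79 lower) with their median, 385 (217 higher, 168 lower) with array weights, 213 (119 higher, 94 lower) at a threshold of 0.1, and 853 (338 higher, 515 lower) with the mean of probe sets and no control 4. In this last setting the members called were 4 higher (Cdc34 added) and 1 lower (Plagl1). Array weights raised the probe sets called to 1663, and leaving out dim probe sets gave 40 genes with uneven probe sets. Leaving out 1 array at a time gave 33 to 260 genes (20 to 159 higher, 13 to 101 lower), 138 to 1216 probe sets, 31 to 304 genes with uneven probe sets, 1 to 3 members higher, 0 lower, 6 to 21 member probe sets, and 1 to 3 members with uneven probe sets. The fewest genes (33) were called without Dicer1-deficient array 1 and the most (260) without control 4.

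Signs turned for Lrig3 (−0.0104) and E2f6 (0.0595) with the mean of probe sets, for Lin28b (0.0591), Lrig3 (−0.0199) and E2f6 (0.0365) with their median, for Hmga2 with array weights (0.0927) and without control 4 (0.0955), for E2f6 without Dicer1-deficient array 2 (0.2912), for Cdc34 without control 2 (−0.0328) or 3 (−0.0444), and for Lin28b (0.0267) and Lrig3 (−0.1235) with the mean of probe sets and no control 4. Over the arrays left out in turn, Hmga2 ran from −0.2364 to 0.0955, Cdc34 from −0.0444 to 0.2606 and E2f6 from −0.3202 to 0.2912. The cause was not tested. No paired analysis was possible because the labels give no replicate numbers shared between the groups. With 3 and 4 arrays, the differences near 0.2 of Plagl1, Fnip1 and Limd2 at their brightest probe sets did not pass the test. Dim probe sets left Lin28b little room to show a further decrease.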
